A study of Mus musculus with 10 samples.

Results

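The genes described here are 48 genes of the G2 and M phases of the cell cycle, other than cyclins and most mitotic kinesins, out of the 54446 genes of the table. They were chosen by symbol for their known role, with earlier results of these data known. By function they were sorted into 8 groups, covering the kinetochore and centromere (9 genes), the spindle checkpoint (5), the chromosomal passenger complex (4), mitotic kinases, phosphatases and entry (8), the anaphase-promoting complex and separase control (3), spindle and microtubule proteins (8), condensin and chromosome structure (7) and cytokinesis (4). All 48 symbols were found. RNA of whole esophagus came from wild-type C57BL/6 mice, either treated with the contact allergen oxazolone (OXA) to model eosinophilic esophagitis, an allergic inflammation of the gullet, or given vehicle. There were 5 OXA libraries (C1 and D1 to D4) and 5 vehicle libraries (A1 to A5), all CEL-Seq, a method that counts the 3′ ends of polyadenylated RNA. The age and sex of the mice, the dose, route and timing of OXA and the meaning of the letters were not known here. The letters are nested within treatment, so any batch they might mark cannot be told apart from OXA. Nothing in the labels says whether replicates are separate mice or how they arose, and the p-values therefore reflect only the spread among these libraries, which may be technical. Values are normalized counts, that is reads scaled by 1 size factor for each library, listed in the order C1, D1, D2, D3, D4 for OXA and A1 to A5 for vehicle. Krt13 and Krt5, keratins of stratified squamous epithelium, were abundant in every library, with at least 110498 and 11366 normalized counts. Levels were compared between groups of libraries and not between genes.

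A dividing cell condenses its chromosomes with condensin and topoisomerase II, assembles a kinetochore on each centromere and captures spindle microtubules there. The spindle checkpoint holds the anaphase-promoting complex inactive until every kinetochore is attached, after which separase is freed, the sister chromatids part and the cell is cleaved at the midzone. Many of these genes are transcribed late in the cell cycle through a short promoter element, the cell cycle genes homology region (CHR), often with CCAAT boxes upstream of it, and their RNA is a common measure of how many cells of a tissue are dividing. In the esophagus the dividing cells of the resting epithelium lie in its basal layer. In bulk tissue, more dividing cells and more RNA per dividing cell cannot be told apart.

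Of the 48 genes, 47 had a mean of at least 5 normalized counts over the 10 libraries and were tested. In the OXA libraries 44 of them were higher and 0 were lower, and 3 did not pass the test (limma on log2(value + 1), Benjamini-Hochberg adjusted p under 0.05 over all 14712 genes tested). Over all tested genes 2309 (15.7%) were higher and 2085 (14.2%) were lower. The median log2 fold change was 2.26 for the mitotic genes and -0.01 for all tested genes. In 43 of the 48 genes every OXA library was above every vehicle library, an order that held for 12.0% of all tested genes. Because the 48 genes were chosen with earlier results of these data known, these shares and medians are set side by side as a description. The OXA mean was more than 4 times the vehicle mean for 29 genes and more than 8 times for 11. With no filter on low values, 42 of the 48 passed as higher, against 7.87% of 26612 genes. The mean filter itself let in Bub1 and Ttk, whose vehicle means were under 5 normalized counts.

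The promoters of 3 genes are shown because these had the smallest p of the called genes, and both elements were found in each. In the RefSeq annotation of GRCm38.p6, a promoter of 250 bases before to 50 after the start was at hand for 40 of the 48 genes. The sequences run 5′ to 3′ along the gene, and capitals mark the CHR (TTTGAA or TTCGAA) and the CCAAT box (CCAAT), each on either strand, so that a capital ATTGG or TTCAAA is a match on the other strand. They are the promoters of Prc1 at chr7:80294201-80294500 (plus strand), Top2a at chr11:99024140-99024439 (minus strand) and Mki67 at chr7:135716330-135716629 (minus strand).
Prc1: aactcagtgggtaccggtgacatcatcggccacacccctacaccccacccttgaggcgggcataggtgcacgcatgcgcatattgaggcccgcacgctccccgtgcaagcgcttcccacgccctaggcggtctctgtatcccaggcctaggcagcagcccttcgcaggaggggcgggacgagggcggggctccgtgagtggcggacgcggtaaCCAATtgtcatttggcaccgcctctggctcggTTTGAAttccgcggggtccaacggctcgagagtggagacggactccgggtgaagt
Top2a: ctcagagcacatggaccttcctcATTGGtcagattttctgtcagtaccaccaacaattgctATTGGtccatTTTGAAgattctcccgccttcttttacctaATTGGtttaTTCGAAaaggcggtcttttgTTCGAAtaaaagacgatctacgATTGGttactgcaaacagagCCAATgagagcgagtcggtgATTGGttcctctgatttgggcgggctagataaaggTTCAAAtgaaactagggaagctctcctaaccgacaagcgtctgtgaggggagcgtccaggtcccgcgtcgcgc
Mki67: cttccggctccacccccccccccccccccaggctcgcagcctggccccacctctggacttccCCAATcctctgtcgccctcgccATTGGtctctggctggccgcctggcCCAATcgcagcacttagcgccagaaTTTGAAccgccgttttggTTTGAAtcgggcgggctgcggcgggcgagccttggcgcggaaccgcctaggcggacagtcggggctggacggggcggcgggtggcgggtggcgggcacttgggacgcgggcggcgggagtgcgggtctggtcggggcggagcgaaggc
In Prc1 the CHR began at position -5 and the CCAAT box at -37, counted from the base before the start as -1. In Top2a there were matches to both elements along most of the window, and in Mki67 the CHR matches began at -116 and -98. A gene was counted if any of its promoters held a match. For the CHR this was so in 28 of the 40 genes (70%), against 5854 of 27025 genes with a promoter (21.7%) and 8 of 36 DNA replication genes (22.2%). A CCAAT match was found in 31 of the 40 (77.5%), against 41.1% of all and 63.9% of the replication genes. Both were found in 26 of the 40 (65%), against 8.61% of all and 16.7% of the replication genes. In the 3 printed promoters the CHR and CCAAT matches do not overlap each other. These matches describe the letters in this window and were not tested as binding sites.

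**Figure D1:**
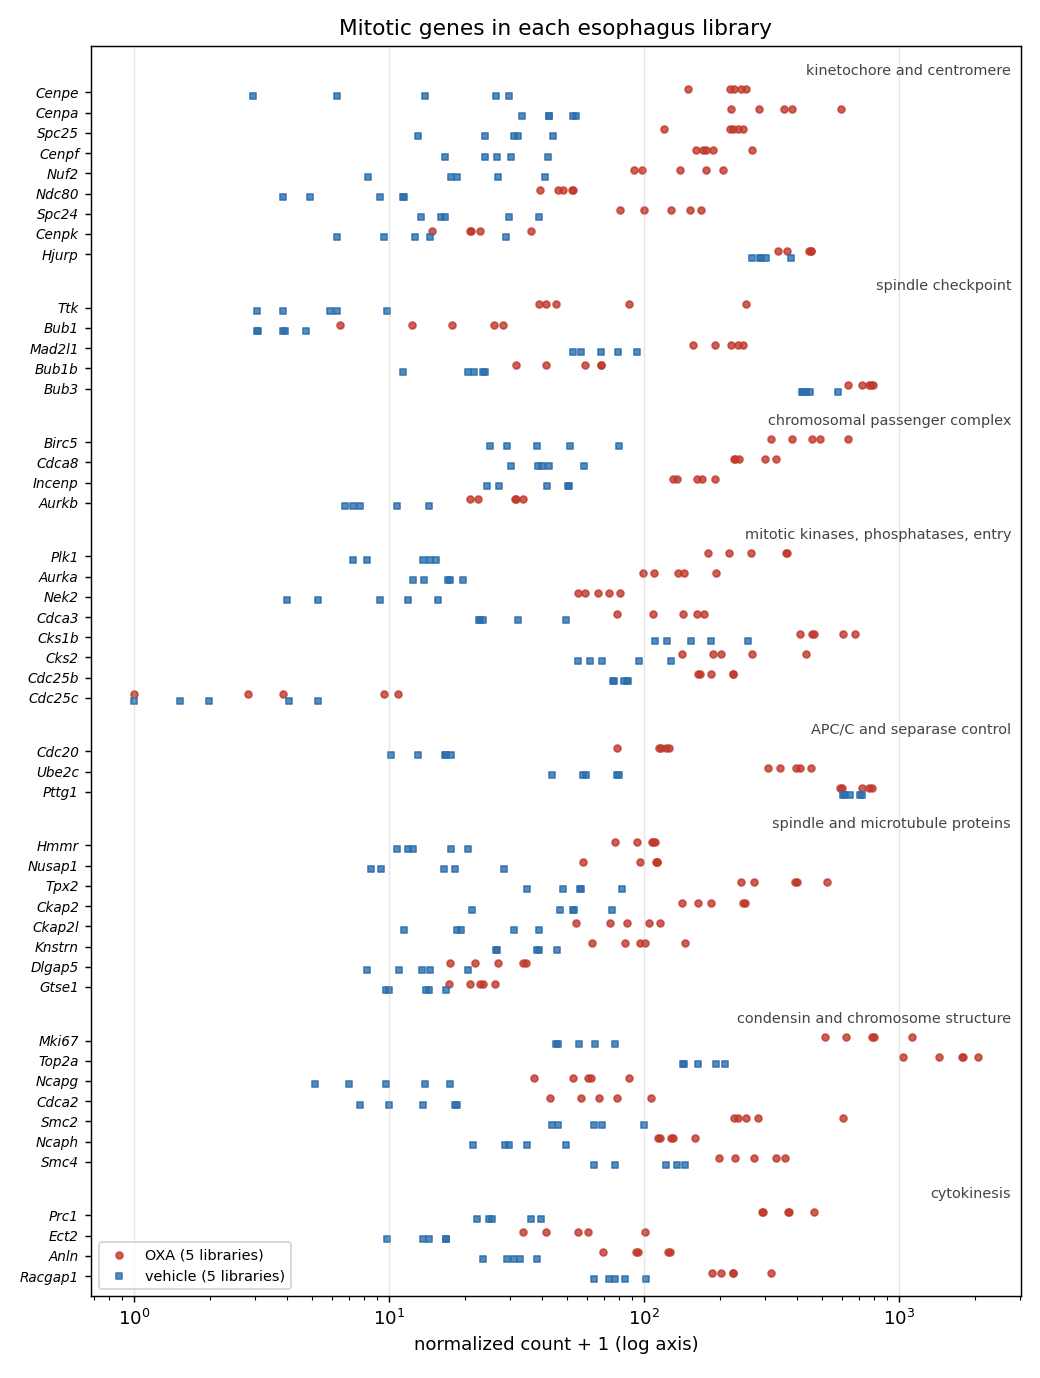
Normalized count plus 1 (log axis) of each of the 48 mitotic genes in every library, by functional group, with OXA libraries as circles above and vehicle libraries as squares below. The 2 sets of points are apart for 43 genes, and they overlap for Hjurp, Cenpk, Cdc25c, Pttg1 and Dlgap5.

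At the kinetochore and centromere, 8 of 9 genes were higher in OXA libraries, with a median log2 fold change of 2.78. Cenpe (3:135212537-135273911 on GRCm38), a motor protein that carries chromosomes along microtubules, had 239, 148, 252, 217 and 225 normalized counts in OXA libraries, against 28.8, 5.25, 1.95, 25.4 and 12.9 in vehicle libraries. The OXA libraries lay close together and the vehicle libraries were spread widely, from near the limit of detection in A3 to A1. The log2 fold change was 4.22 ± 0.52 (SE, adjusted p = 5.06e-05). Cenpf, a large protein of the outer kinetochore, had 169, 175, 159, 187 and 265 normalized counts in OXA libraries, against 41.1, 25.5, 29.2, 15.6 and 22.9 in vehicle libraries, and no library of the groups overlapped, with a log2 fold change of 2.83 ± 0.24 (adjusted p = 2.56e-06). The 4 subunits of the NDC80 complex, which grips the end of the microtubule, were all higher. Ndc80 had 47.3, 51.2, 45.3, 51.7 and 38.3 normalized counts in OXA libraries, against 8.22, 10.5, 3.90, 10.4 and 2.86 in vehicle libraries (log2 fold change 2.67 ± 0.35, adjusted p = 8.53e-05), and its partner Nuf2 had 138, 97.4, 90.5, 204 and 174 normalized counts in OXA libraries, against 40.1, 16.5, 17.5, 7.27 and 25.8 in vehicle libraries (log2 fold change 2.78 ± 0.38, adjusted p = 1.05e-04). Their changes differed by -0.11 ± 0.64 on the log2 scale (exact two-sided permutation test, p = 0.865), an interval too wide to call them alike. Of the inner pair, Spc24 averaged 124 ± 35.5 normalized counts in OXA and 21.9 ± 11.0 in vehicle libraries (SD, n = 5 each, here and in the means that follow). Spc25 averaged 208 ± 50.7 normalized counts in OXA and 27.8 ± 11.5 in vehicle libraries. Their log2 fold changes were 2.53 ± 0.31 and 2.92 ± 0.30 (SE), a difference of -0.39 ± 0.44 (exact p = 0.389). None of the 4 subunits had an OXA library within the vehicle range.

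Cenpa, the histone H3 variant that marks centromeres, and Hjurp, the chaperone that deposits it, moved by unequal amounts. Cenpa had 355, 218, 282, 382 and 591 normalized counts in OXA libraries, against 53.4, 32.2, 51.6, 41.5 and 41.5 in vehicle libraries, with a log2 fold change of 2.97 ± 0.24 (adjusted p = 1.53e-06). Hjurp (1:88262171-88277633) had 443, 334, 364, 450.1 and 453 normalized counts in OXA libraries, against 378, 288, 266, 299.7 and 285 in vehicle libraries. The vehicle library A1 was above the OXA libraries D1 and D2, and the change was small (log2 fold change 0.43 ± 0.14, adjusted p = 0.0345). The log2 fold change of Cenpa exceeded that of Hjurp by 2.54 ± 0.21 (exact two-sided permutation test over 252 splits, p = 0.00794, adjusted p = 0.0254 over 16 pairs of related genes). The smallest p that 5 against 5 libraries allow is 0.00794. All 16 pairs were chosen with earlier results of these data known, so the p-values of pairs throughout are descriptive and do not measure chance alone. The Hjurp call was lost in 10 of 22 alternative settings, among them without C1, D3, D4, A2, A3, A4 or A5, where the adjusted p was 0.0627 to 0.0848. Cenpk, a subunit of the inner centromere network, had 13.7, 19.9, 21.7, 20.1 and 35.1 normalized counts in OXA libraries, against 27.7, 5.25, 11.7, 13.5 and 8.59 in vehicle libraries, and its groups overlapped (log2 fold change 0.81 ± 0.41, adjusted p = 0.147). It passed only without A1, its highest vehicle library, with an adjusted p of 0.0475. An exon of Cenpk overlaps an exon of Ppwd1 on the other strand by 233 bases in GENCODE M21, and Ppwd1 was itself higher in OXA libraries (log2 fold change 0.95, adjusted p = 0.0164). Whether reads were counted by strand was not known, and the part of reads from the shared stretch in the Cenpk counts was not tested.

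All 5 spindle checkpoint genes were higher in OXA libraries, with a median log2 fold change of 1.59 and a wide range. Ttk (Mps1), the kinase that starts the checkpoint signal, had 44.3, 40.5, 38.0, 86.2 and 251 normalized counts in OXA libraries, against 2.05, 5.25, 4.87, 8.83 and 2.86 in vehicle libraries. D4 was far above the other 4 OXA libraries, which were themselves all above vehicle. The log2 fold change was 3.71 ± 0.51 (SE, adjusted p = 1.15e-04), and 3.24 without D4. Bub1, a kinase at unattached kinetochores, had 16.8, 11.4, 5.43, 24.9 and 27.1 normalized counts in OXA libraries, against 2.05, 3.75, 2.92, 2.08 and 2.86 in vehicle libraries, from 84 reads in the OXA libraries and 16 in the vehicle libraries in all. Its groups did not overlap (log2 fold change 2.12 ± 0.47, adjusted p = 0.00400). Bub1b (BubR1), which binds the anaphase activator Cdc20, averaged 52.6 ± 16.4 normalized counts in OXA and 19.1 ± 5.08 in vehicle libraries, with a log2 fold change of 1.40 ± 0.30 (adjusted p = 0.00303). Mad2l1 (Mad2), the other protein that holds Cdc20, averaged 208 ± 35.7 normalized counts in OXA and 69.3 ± 16.9 in vehicle libraries, with a log2 fold change of 1.59 ± 0.19 (adjusted p = 4.68e-05).

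Bub3, the adaptor of both Bub1 and BubR1, had the smallest change of the 5. It had 716, 765, 632, 779.6 and 789 normalized counts in OXA libraries, against 431, 420.0, 448, 415 and 575 in vehicle libraries. Library A5 was the highest of the vehicle group and still under the lowest OXA library, D2, and the log2 fold change was 0.69 ± 0.13 (SE, adjusted p = 0.00125). The change of Ttk exceeded that of Bub3 by 3.02 ± 0.59 on the log2 scale (exact p = 0.00794, adjusted p = 0.0254). The changes of Bub1 and Mad2l1 exceeded it by 1.43 ± 0.37 and 0.90 ± 0.26, each with an exact p of 0.0159 and an adjusted p of 0.0363. Over 13 settings, the reported one among them, they passed in 4 and 5, and ran from 0.72 to 1.70 and from 0.75 to 1.03. The difference of Ttk minus Bub3 ran from 2.28 to 3.27. Bub1 and Ttk had vehicle means under 5 normalized counts and passed the mean filter through their OXA values. The size of their differences is therefore uncertain. For Bub1b the difference of 0.71 ± 0.28 did not pass (exact p = 0.0635, adjusted p = 0.113). Bub1 and Bub1b, a kinase and its paralog, differed by 0.72 ± 0.42 (exact p = 0.119).

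The 4 genes of the chromosomal passenger complex, which corrects faulty attachments and later moves to the midzone, were all higher in OXA libraries, with a median log2 fold change of 2.37. Birc5 (survivin), which brings the complex to the centromere, had 492, 379, 315, 458 and 632 normalized counts in OXA libraries, against 50.3, 24.0, 37.0, 28.0 and 78.7 in vehicle libraries. The lowest OXA library was well above the highest vehicle library, A5, and the log2 fold change was 3.44 ± 0.29 (SE, adjusted p = 2.04e-06). Cdca8 (borealin) averaged 263 ± 48.2 normalized counts in OXA and 40.9 ± 10.4 in vehicle libraries (log2 fold change 2.67 ± 0.20, adjusted p = 7.22e-07). Incenp, the scaffold, averaged 156 ± 25.2 normalized counts in OXA and 37.9 ± 12.7 in vehicle libraries (log2 fold change 2.07 ± 0.24, adjusted p = 3.00e-05). The kinase of the complex, Aurkb, had 30.5, 21.3, 19.9, 32.6 and 30.3 normalized counts in OXA libraries, against 13.3, 6.75, 9.74, 6.23 and 5.72 in vehicle libraries. Its groups did not overlap, and the log2 fold change was 1.61 ± 0.32 (SE, adjusted p = 0.00197).

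Among the kinases, phosphatases and other genes of mitotic entry, 7 of 8 were tested and all 7 were higher, with a median log2 fold change of 2.16. Plk1 (7:122159439-122170173), the polo-like kinase that acts at centrosomes, kinetochores and the midzone, had 262, 177, 215, 362 and 361 normalized counts in OXA libraries, against 7.19, 13.5, 12.7, 6.23 and 14.3 in vehicle libraries. The lowest OXA library, D1, was far above the highest vehicle library, A5, and the log2 fold change of 4.56 ± 0.28 (SE, adjusted p = 1.62e-07) was the largest of the 47 tested genes. Aurka, the aurora kinase of the spindle poles, had 144, 98.1, 109, 135 and 192 normalized counts in OXA libraries, against 16.4, 12.8, 18.5, 16.1 and 11.4 in vehicle libraries, with no overlap and a log2 fold change of 3.07 ± 0.23 (adjusted p = 8.46e-07). Its change exceeded that of Aurkb by 1.45 ± 0.19 on the log2 scale (exact p = 0.00794, adjusted p = 0.0254). Nek2, a kinase that separates the centrosomes, averaged 65.9 ± 10.4 normalized counts in OXA and 8.21 ± 4.77 in vehicle libraries (log2 fold change 3.02 ± 0.36, adjusted p = 4.15e-05). Cdca3, a factor that triggers mitotic entry, averaged 132 ± 38.6 normalized counts in OXA and 29.1 ± 11.6 in vehicle libraries (log2 fold change 2.16 ± 0.28, adjusted p = 7.27e-05).

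Cdc25b, a phosphatase that activates Cdk1, had 183, 162, 223, 165 and 223 normalized counts in OXA libraries, against 75.0, 75.8, 85.8, 84.7 and 83.0 in vehicle libraries. The vehicle libraries lay within a narrow range under all OXA libraries, and the log2 fold change was 1.22 ± 0.15 (SE, adjusted p = 5.06e-05). Its relative Cdc25c was under the filter, with 9.92, 2.84, 1.81, 8.62 and 0 normalized counts in OXA libraries, against 3.08, 0, 0.970, 0.520 and 4.29 in vehicle libraries, from 27 reads in the OXA libraries and 8 in the vehicle libraries in all. The groups overlapped, the value was 0 in the OXA library D4, and with a mean filter of 1 the log2 fold change was 0.83 ± 0.69 (adjusted p = 0.427), so that a change was not detectable at this depth. Of the small Cdk-binding proteins, Cks1b averaged 521 ± 112 normalized counts in OXA and 164 ± 58.5 in vehicle libraries. Cks2 averaged 245 ± 114 normalized counts in OXA and 80.7 ± 29.9 in vehicle libraries. Their log2 fold changes of 1.70 ± 0.22 and 1.55 ± 0.29 (SE) differed by 0.15 ± 0.25 (exact p = 0.563).

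Of the 3 genes that act with the anaphase-promoting complex, 2 were higher and the third did not pass. Cdc20, its activator and the target of the checkpoint, had 124, 77.5, 114, 116 and 121 normalized counts in OXA libraries, against 9.24, 12.0, 16.6, 15.6 and 15.7 in vehicle libraries. D1 was below the other OXA libraries and all were above vehicle (log2 fold change 2.92 ± 0.23, adjusted p = 1.31e-06). Ube2c, the ubiquitin-conjugating enzyme of the complex, had 409, 342, 306, 452 and 396 normalized counts in OXA libraries, against 58.5, 42.8, 78.9, 56.6 and 77.3 in vehicle libraries, with no overlap and a log2 fold change of 2.60 ± 0.19 (adjusted p = 5.85e-07). Pttg1 (securin; 11:43419950-43426251), which keeps separase inactive until the complex marks it for destruction, had 597, 761, 588, 785 and 720.0 normalized counts in OXA libraries, against 644, 604, 703, 718 and 617 in vehicle libraries. The groups lay over each other, and the log2 fold change was 0.06 ± 0.13 (SE, adjusted p = 0.739). The changes of Cdc20 and Ube2c exceeded that of Pttg1 by 2.86 ± 0.22 and 2.54 ± 0.18 on the log2 scale (exact p = 0.00794 and adjusted p = 0.0254 for each). An exon of Ube2c overlaps an exon of Tnnc2, a troponin of skeletal muscle, by 144 bases on the other strand. Tnnc2 averaged 37285 normalized counts in OXA libraries and 41415 in vehicle libraries and did not pass the test (adjusted p = 0.570), and its part in the Ube2c counts was not tested.

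**Figure D2:**
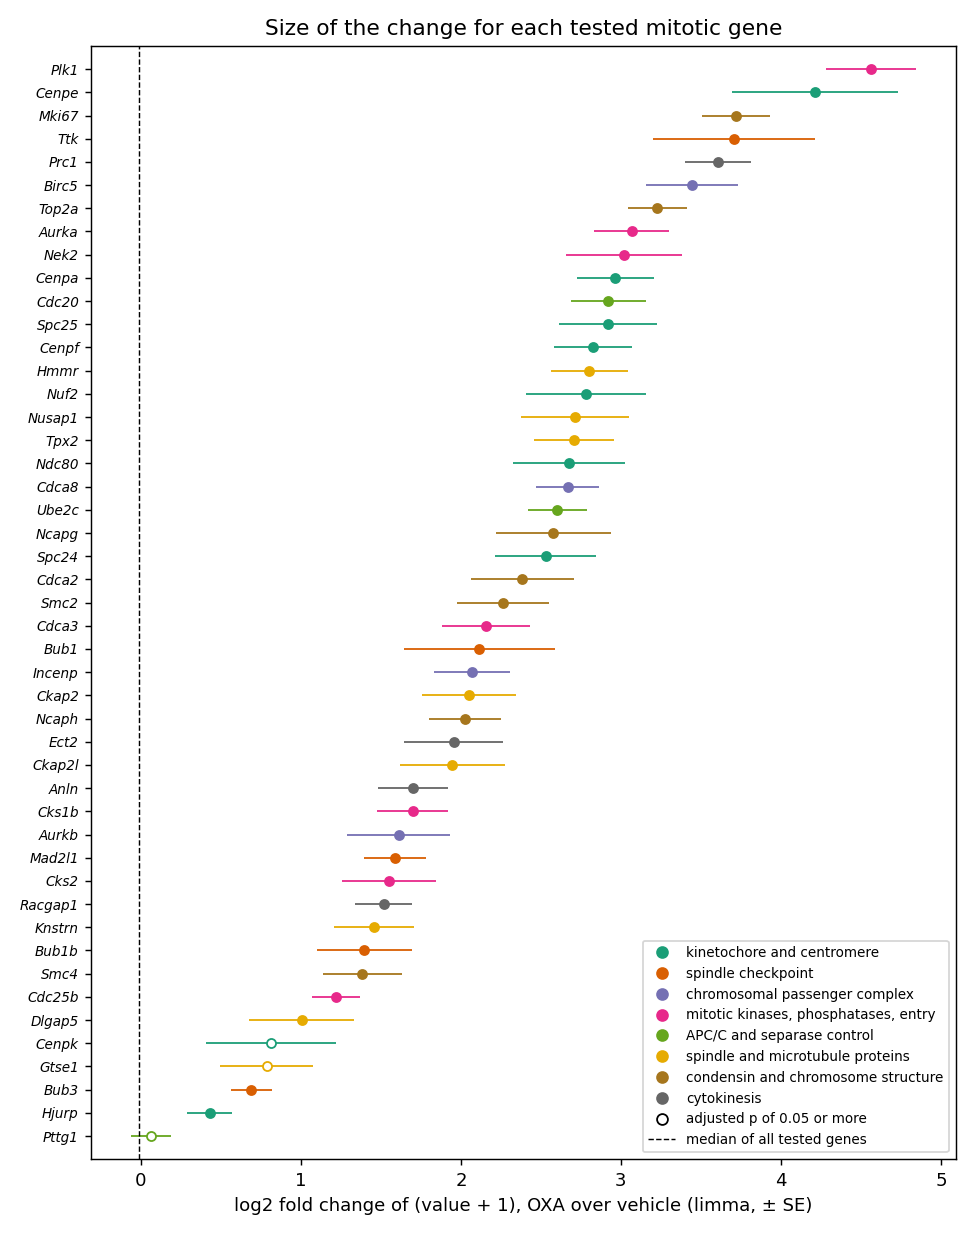
Log2 fold change of (value + 1), OXA over vehicle, with its standard error from limma for the 47 tested mitotic genes, coloured by functional group. Open points did not pass the test, the dashed line is the median of all tested genes (-0.01), and the values run from 0.06 for Pttg1 to 4.56 for Plk1.

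Of the 8 spindle and microtubule proteins, 7 were higher in OXA libraries, with a median log2 fold change of 1.999. Tpx2, which activates Aurka and nucleates microtubules around chromosomes, had 390.1, 239, 269.8, 397 and 520.4 normalized counts in OXA libraries, against 55.5, 33.8, 55.5, 47.3 and 81.6 in vehicle libraries. The groups were far apart (log2 fold change 2.71 ± 0.25, adjusted p = 4.88e-06). Hmmr, a spindle pole protein, averaged 98.9 ± 14.4 normalized counts in OXA and 13.6 ± 4.20 in vehicle libraries (log2 fold change 2.80 ± 0.24, adjusted p = 2.60e-06), and Nusap1, which bundles microtubules, averaged 97.6 ± 23.8 normalized counts in OXA and 15.1 ± 8.01 in vehicle libraries (log2 fold change 2.71 ± 0.34, adjusted p = 5.49e-05). Ckap2 and its paralog Ckap2l are both spindle proteins. Ckap2 averaged 196 ± 48.8 normalized counts in OXA and 49.0 ± 19.4 in vehicle libraries, and Ckap2l averaged 86.0 ± 24.5 normalized counts in OXA and 22.8 ± 11.0 in vehicle libraries. Their log2 fold changes of 2.05 ± 0.29 and 1.95 ± 0.33 (SE) differed by 0.11 ± 0.35 (exact p = 0.738). Knstrn, a kinetochore partner of the spindle, averaged 96.8 ± 30.1 normalized counts in OXA and 34.2 ± 8.49 in vehicle libraries (log2 fold change 1.46 ± 0.25, adjusted p = 6.51e-04).

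The other two spindle genes had the smallest changes of the group. Dlgap5 (HURP), which stabilizes kinetochore fibres, had 33.6, 16.4, 32.6, 25.9 and 20.8 normalized counts in OXA libraries, against 7.19, 13.5, 19.5, 12.5 and 10.02 in vehicle libraries. The vehicle library A3 was above the OXA library D1, and the log2 fold change was 1.01 ± 0.33 (SE, adjusted p = 0.0333). That call was lost in 11 of 21 alternative settings, among them without C1, D2, D3, A1, A2, A4 or A5, where the adjusted p was 0.0502 to 0.0857. Gtse1, a microtubule-bound protein of G2 and mitosis, had 25.2, 19.9, 21.7, 16.3 and 22.4 normalized counts in OXA libraries, against 13.3, 9.00, 8.77, 13.0 and 15.7 in vehicle libraries. Its groups did not overlap, yet it did not pass the test (log2 fold change 0.79 ± 0.29, adjusted p = 0.0550). It passed in 5 of 21 alternative settings, with adjusted p of 0.0304 to 0.0465, among them without A5 (0.0451).

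All 7 genes of condensin and chromosome structure were higher in OXA libraries, with a median log2 fold change of 2.38. Top2a, the topoisomerase that untangles sister chromatids, had 1766, 1036, 1441, 1785 and 2049.7 normalized counts in OXA libraries, against 143, 163, 208, 142 and 190.3 in vehicle libraries. D1 was the lowest and D4 the highest of the OXA libraries, all were far above the vehicle range, and the log2 fold change was 3.23 ± 0.18 (SE, adjusted p = 7.66e-08). Mki67 (Ki-67), the surfactant-like coat protein of mitotic chromosomes and a widely used stain for dividing cells, had 782, 512, 621, 802 and 1129 normalized counts in OXA libraries, against 76.0, 45.0, 63.3, 54.5 and 44.4 in vehicle libraries, with no overlap and a log2 fold change of 3.72 ± 0.21 (adjusted p = 7.91e-08). Both promoters are among those printed above.

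Of the condensin subunits, Smc2, an ATPase core subunit, had 279, 225, 234, 252 and 602 normalized counts in OXA libraries, against 99.6, 45.0, 42.9, 67.5 and 63.0 in vehicle libraries. D4 stood well above the other OXA libraries, all of which were above vehicle, and the log2 fold change was 2.26 ± 0.29 (SE, adjusted p = 6.37e-05), and 2.004 without D4. Its partner Smc4 averaged 275 ± 67.5 normalized counts in OXA and 108 ± 36.1 in vehicle libraries (log2 fold change 1.38 ± 0.25, adjusted p = 8.57e-04). Their changes differed by 0.88 ± 0.33 on the log2 scale, which did not pass over the 16 pairs (exact p = 0.0397, adjusted p = 0.0794). Ncapg and Ncaph belong to condensin I alone. Ncapg averaged 59.0 ± 18.1 normalized counts in OXA and 9.65 ± 5.02 in vehicle libraries, and Ncaph averaged 128 ± 18.02 normalized counts in OXA and 31.8 ± 10.5 in vehicle libraries. Their log2 fold changes of 2.58 ± 0.36 and 2.02 ± 0.22 (SE) differed by 0.55 ± 0.40 (exact p = 0.190). Cdca2 (Repo-Man), which brings a phosphatase to chromatin at mitotic exit, averaged 69.4 ± 24.1 normalized counts in OXA and 12.6 ± 4.79 in vehicle libraries (log2 fold change 2.38 ± 0.32, adjusted p = 1.05e-04).

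The 4 cytokinesis genes were all higher in OXA libraries, with a median log2 fold change of 1.83. Prc1 (7:80294450-80316559), which crosslinks the antiparallel microtubules of the midzone, had 368, 291, 289.7, 464 and 369 normalized counts in OXA libraries, against 23.6, 35.2, 24.4, 21.3 and 38.6 in vehicle libraries. Its groups were far apart, and the log2 fold change was 3.61 ± 0.21 (SE, adjusted p = 7.66e-08). Its promoter is the first printed above. Ect2, the exchange factor that activates RhoA at the cleavage site, had 59.5, 32.7, 54.3, 40.2 and 101 normalized counts in OXA libraries, against 13.3, 15.8, 12.7, 8.83 and 15.7 in vehicle libraries, with no overlap and a log2 fold change of 1.95 ± 0.31 (adjusted p = 3.85e-04). Racgap1, a subunit of centralspindlin, averaged 229 ± 50.4 normalized counts in OXA and 79.1 ± 14.5 in vehicle libraries (log2 fold change 1.52 ± 0.18, adjusted p = 3.81e-05). Anln (anillin), the scaffold of the contractile ring, averaged 101 ± 24.1 normalized counts in OXA and 29.9 ± 5.31 in vehicle libraries (log2 fold change 1.70 ± 0.22, adjusted p = 7.47e-05).

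In 14 of the 48 genes, Cenpk and Ube2c among them, an exon overlaps an exon of another gene in GENCODE M21, in 13 of them on the other strand. For Prc1 the partner was Rccd1, with an overlap of 670 bases and means of 26.8 normalized counts in OXA libraries and 19.6 in vehicle libraries. For Ncapg it was Lcorl, with an overlap of 699 bases and means of 57.0 normalized counts in OXA libraries and 55.3 in vehicle libraries. Neither partner passed the test. Elovl1, the partner of Cdc20, was lower in OXA libraries (log2 fold change -0.65, adjusted p = 0.0116), as was 9930104L06Rik, the partner of Cdca8 (-0.92, adjusted p = 0.0355).

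The OXA libraries differed among themselves. The summed normalized count of the 48 genes was 11729, 8875, 9851, 12189 and 14589 in the OXA libraries, against 3269, 2701, 3257, 2906 and 3397 in the vehicle libraries. These sums came to between 0.148% and 0.237% of all reads in OXA libraries and between 0.0423% and 0.0505% in vehicle libraries. D4 had the highest of the OXA values for 31 genes and D3 for 10, while D1 had the lowest for 26 and D2 for 16. The mean log2(value + 1) of the 48 genes, taken relative to the vehicle mean, ran from 1.88 in D1 to 2.55 in D4 among OXA libraries and from -0.28 in A2 to 0.18 in A1 among vehicle libraries. Within vehicle, A1 was highest for 15 genes, A3 for 14 and A5 for 13, and A2 was lowest for 17 and A4 for 13. All 8 functional groups were higher in each OXA library than in any vehicle library by this mean.

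**Figure D3:**
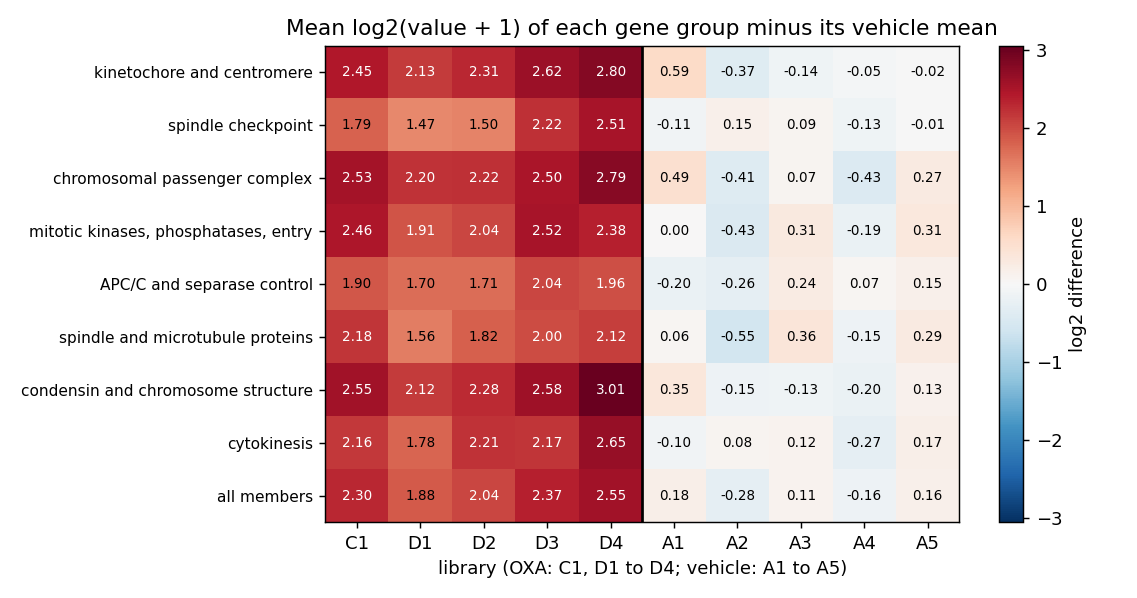
Mean log2(value + 1) of each functional group in each library minus its vehicle mean, OXA libraries left of the line and vehicle libraries right of it. The OXA columns run from 1.47 (spindle checkpoint, D1) to 3.01 (condensin and chromosome structure, D4), and the vehicle columns from -0.55 to 0.59.

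Tissue markers and depth also differed among the OXA libraries. The summed count of 7 skeletal muscle genes was 64988, 185120, 67209, 132492 and 40531 in OXA libraries, against 91125 to 127273 in vehicle libraries. It was highest in D1 and lowest in D4, the reverse of the mitotic sum, but the second highest in both sums was D3. The summed count of 9 basal epithelium genes was lowest in D1 (24147) and highest in D4 (50683), against 31876 to 43383 in vehicle libraries. D4 and D2 were also the shallowest libraries, with 3848628 and 3675479 reads, in a range of 3675479 to 8364227 in OXA and 5094159 to 12108822 in vehicle libraries. The part of tissue make-up and depth in the differences among OXA libraries was not tested. Without the 3 shallowest libraries (D2, D4 and A5), 42 of the 48 genes still passed as higher.

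Markers of several cell types changed beside the mitotic genes. Of 9 T cell genes 8 were higher in OXA libraries, and their summed count was 485 to 655 in OXA libraries and 65.8 to 141 in vehicle libraries. Of 7 macrophage genes 6 were higher, with sums of 2842 to 5183 in OXA libraries and 1293 to 2263 in vehicle libraries. Among 6 plasma cell genes 5 were tested, 3 were higher and Sdc1, which epithelium also makes, was lower. Among 6 B cell genes only 3 were tested and 2 were higher, with sums of 18.3 to 191 in OXA libraries and 1.43 to 24.8 in vehicle libraries. Of 6 fibroblast genes 2 were higher, and of 6 endothelial genes 1 (16.7%), while 15.7% of all tested genes were higher. The endothelial sums overlapped, at 293 to 722 in OXA libraries and 240 to 516 in vehicle libraries. The eosinophil granule genes Epx and Prg2 were at 0 in at least 3 of the OXA libraries and at or near 0 in vehicle libraries. Only 2 of the 7 eosinophil genes were tested, of which Ear6 was higher. The sum over all 7 genes was 365 in C1, 628 in D2 and 103 to 158 in the other OXA libraries, against 38.4 to 58.5 in vehicle libraries.

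The basal epithelium genes, the layer in which esophageal cells divide, did not move as a block. Krt14 and Itga6 were higher in OXA libraries, Krt15, Col17a1 and Dst were lower, and 4 did not pass. Krt14 had 11096, 8542, 7555, 8949.8 and 20157 normalized counts in OXA libraries, against 2052, 1916, 2438, 2276 and 3102 in vehicle libraries, with no overlap and a log2 fold change of 2.18 ± 0.25 (adjusted p = 2.64e-05), while Krt5 did not pass (log2 fold change 0.12, adjusted p = 0.722). Of 8 tested suprabasal genes 6 were lower and 0 were higher. The part of each cell type in the rise of the mitotic genes was not tested.

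Cell types that divide outside the esophagus were looked for by their defining genes. Of the germinal centre B cell genes, Rgs13 was at 0 in all OXA libraries, and none of the 3 tested genes passed. Gcsam, under the filter, had 9.92, 5.69, 16.3, 1.92 and 0 normalized counts in OXA libraries, against 4.11, 0.75, 0.97, 0.52 and 0 in vehicle libraries, from 32 reads in the OXA libraries and 7 in the vehicle libraries, and its groups overlapped. Of the thymocyte genes, Rag1, Rag2, Dntt and Ptcra were at 0 to 3.55 normalized counts in every library, while Cd8b1, also a T cell gene, was higher. The sum of the 8 thymocyte genes was 76.0 to 200 in OXA libraries, highest in D1, and 44.4 to 80.0 in vehicle libraries. Their mean log2(value + 1), relative to the vehicle mean, was 0.42 to 1.22 in OXA libraries and -0.42 to 0.32 in vehicle libraries. Of the erythroid genes, Klf1 was at or under 2.86 normalized counts in every library and Epor was at 0 in all OXA libraries. The haemoglobin genes Hbb-bt and Hba-a1 and the haem enzyme gene Alas2 were higher, and the sum of the 6 erythroid genes was highest in D4 (14619, against 4064 to 5468 in the other OXA libraries and 1464 to 2213 in vehicle libraries).

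Of 118 further mitotic genes, all tested, 56 were higher in OXA libraries, 8 were lower and 54 did not pass, with a median log2 fold change of 0.54. Both lists were chosen with results of these data in view, so the 2 medians are set side by side as a description. Of 27 further kinetochore and centromere genes 15 were higher and 0 lower, among them Cenph (2.17), of the inner centromere network, and Ska1 (2.52), which couples kinetochores to microtubules. Of 10 further checkpoint genes 6 were higher and 0 lower, with the smallest p for Trip13 (1.91), which disassembles the checkpoint complex, and for the centromere guardians Sgo1 (2.20) and Sgo2a (1.49). Of 15 further condensin and cohesin genes 9 were higher and 0 lower, with the smallest p for the condensin subunits Ncapd2 (1.74) and Ncapg2 (1.80) and the cohesin subunit Rad21 (0.86). The number after each gene is its log2 fold change. All counts in this paragraph are set beside 15.7% higher and 14.2% lower over all tested genes.

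Of 18 further genes of the anaphase-promoting complex and its control, 5 were higher, 3 were lower and 10 did not pass, with a median log2 fold change of -0.07. These counts are set beside 15.7% higher and 14.2% lower over all tested genes. Separase (Espl1) averaged 114 ± 20.3 normalized counts in OXA and 29.5 ± 11.7 in vehicle libraries (log2 fold change 1.99 ± 0.27, adjusted p = 1.09e-04). The enzyme Ube2s and the G1 activator Fzr1 (Cdh1) had log2 fold changes of 1.09 and 0.91. The subunits Anapc2, Anapc13 and Anapc16 were lower, with log2 fold changes of -0.45, -0.71 and -0.42 (adjusted p of 0.0204, 0.00286 and 0.0415).

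Among 15 further genes of mitotic entry 6 were higher and 2 were lower. The kinase Melk (log2 fold change 2.12) and the transcription factors of late cell cycle genes Foxm1 (2.20) and Mybl2 (1.73) had the smallest p. Wee1, the kinase that holds Cdk1 inactive, averaged 177 ± 43.7 normalized counts in OXA and 316 ± 56.0 in vehicle libraries and was lower (log2 fold change -0.84 ± 0.19, adjusted p = 0.00395), and so was Lin37 (-0.72, adjusted p = 0.0277), a subunit of the complex that represses cell cycle genes at the CHR. Of 20 further spindle genes 10 were higher and only Fam83d was lower (-1.12, adjusted p = 0.0153), with the smallest p for Tacc3 (3.04), Spag5 (2.27) and Cep55 (3.43). Of 14 further genes listed under cytokinesis 6 were higher and Mid1ip1 (-0.52) and Chmp1a (-0.76) were lower. The smallest p were those of Cit (3.10), Cep55, a midbody protein counted in both lists, and Depdc1b (3.57). Whether Mid1ip1 acts in cytokinesis was not checked. Over all tested genes 15.7% were higher and 14.2% were lower. The numbers lower in the mitotic entry and cytokinesis lists were near that share.

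**Figure D4:**
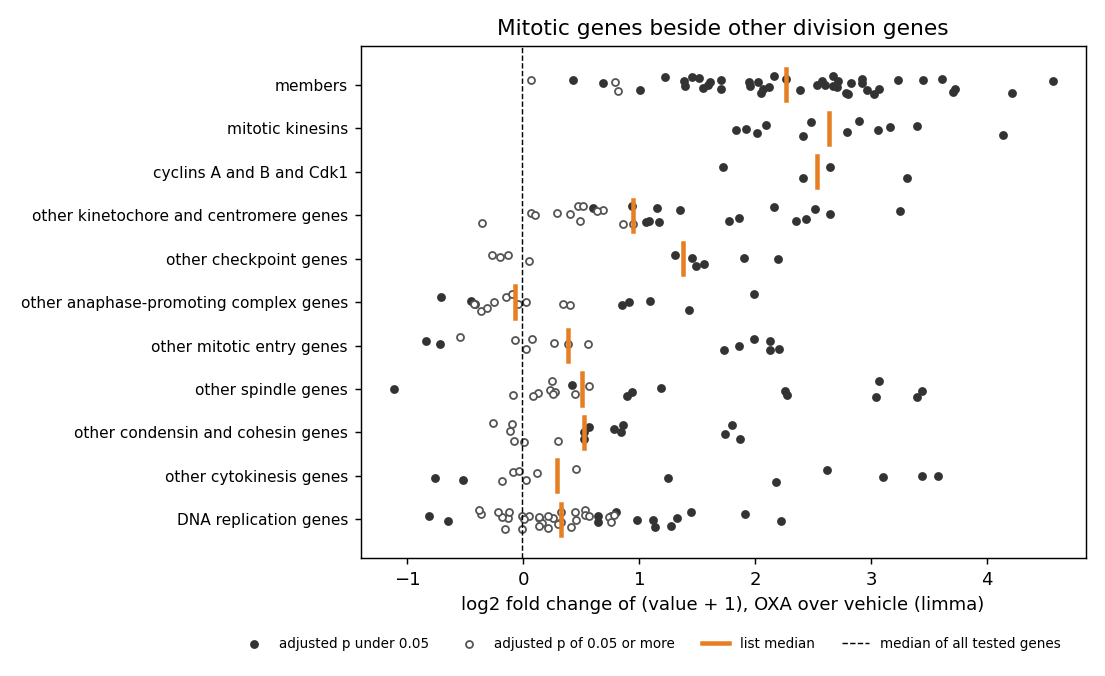
Log2 fold change of (value + 1), OXA over vehicle, for each tested gene of the 48 mitotic genes (top row) and of 10 other lists of division genes, with list medians as bars. Medians were 2.26 for the 48 genes, 2.63 for mitotic kinesins and 2.53 for cyclins A and B with Cdk1. They were -0.07 to 1.38 for further genes of the same processes and 0.32 for DNA replication genes. Cep55 is in both the spindle and the cytokinesis lists, and Kifc1 in both the kinesin and the spindle lists.

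Mitotic kinesins, the motors of the spindle, were higher in 12 of 12, with a median log2 fold change of 2.63. They had the smallest p for Kif15 (3.06), Kif22 (2.89) and Kif18b (4.14), and Kifc1 is also counted among the further spindle genes. Cyclins A and B and Cdk1 were higher in 4 of 4, with a median of 2.53. Ccna2 averaged 407 ± 105 normalized counts in OXA and 43.2 ± 23.2 in vehicle libraries, Cdk1 averaged 645 ± 133 normalized counts in OXA and 107 ± 40.8 in vehicle libraries and Ccnb1 averaged 195 ± 62.1 normalized counts in OXA and 35.3 ± 10.8 in vehicle libraries. Of 44 DNA replication genes, which act earlier in the cycle, 12 were higher, Gins2 (-0.82) and Pold2 (-0.65) were lower and 30 did not pass, with a median of 0.32. The smallest p in that list were those of the ribonucleotide reductase subunits Rrm2 (2.22) and Rrm1 (1.45) and of the helicase subunit Mcm4 (1.32). All counts in this paragraph are set beside 15.7% higher and 14.2% lower over all tested genes. The difference between the mitotic and the replication lists was not tested.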

How the data were processed

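Whole esophagus was measured in 5 OXA and 5 vehicle CEL-Seq libraries. The values the authors deposited are a signal, in a table named normalized counts. Per the submitters' processing notes, which give no roles, the tools were HTSeq 0.11.2, DESeq2 1.18.1, TopHat2 2.1.0 and Bowtie2 2.2.6, with cutadapt 1.10 and FastQC 0.11.5, and the build was GRCm38. Not given in the sources used here are the strand setting and whether molecular identifiers were used, so reads may not be independent molecules. In each library all values were multiples of a single step, and division by that step returned whole reads (100% of values, tolerance 0.01 reads).

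Genes with a mean of at least 5 were tested, OXA over vehicle, with limma 3.58.1 (R 4.3.3, eBayes with trend, two-sided) on log2(value + 1), which understates the change of low genes. Benjamini-Hochberg adjustment ran over all 14712 genes and adjusted p under 0.05 were called. Differences between 16 pairs of related genes had exact two-sided permutation tests over libraries on log2(value + 1), adjusted over the pairs. The members, lists and pairs were chosen with earlier results of these data known. Named genes were all members, and per other list the 3 with the smallest p and any called lower (a few genes are not reported here); marker genes were named where a result turns on them, and exon partners after their values were seen. Alternatives were other pseudocounts, filters and scalings, edgeR 4.0.16 and DESeq2 1.42.0 on recovered reads, sample weights, a replicate block and leaving out libraries. Promoters came from RefSeq and exon overlaps from GENCODE M21.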

Additional observations from a re-analysis of the deposited data

Results flagged for a closer look

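A value was marked where the gap between the highest or lowest library of a group and its nearest neighbour took up more than 0.71 of the group's range, Dixon's 95% limit for 5 values. For independent, normally distributed values this limit marks about 1 in 20 groups. The groups here share the same libraries, so that rate does not measure chance for them. Of 96 groups of the 48 genes, 7 (7.29%) were marked. In the OXA library D4, Cenpf was 264.99 normalized counts against 159 to 187 in the other OXA libraries, Ttk was 250.63 against 38.0 to 86.2, and Smc2 was 601.82 against 225 to 279. In the OXA library D1, Spc25 was 118.7 against 217 to 244 in the other OXA libraries, and Cdc20 was 77.48 against 114 to 124. In vehicle libraries, Bub1b was 10.39 in A4 against 19.5 to 22.9 in the others, and Bub3 was 575.21 in A5 against 415 to 448. All 7 genes kept their call without the library concerned.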

How the results depend on the processing

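Across 22 alternatives to the analysis, 42 of the 44 genes called higher in OXA libraries were called in each that tested them (Bub1 and Aurkb were not tested with a mean of at least 20), and the sign changed for none of the 47 tested genes. The other two, Hjurp and Dlgap5, lost their calls with no filter on low values (adjusted p of 0.0535 and 0.0884), without the 3 shallowest libraries (0.0825 and 0.109) and under several left-out libraries, and Dlgap5 also under quantile normalization (0.0623). The number of mitotic genes called higher ranged from 42 to 44 when any library was left out. Over all genes, leaving out a library gave 1896 to 2361 higher and 1686 to 2201 lower in OXA libraries. Scaling to library totals gave 2915 higher and 1545 lower, so that 65.4% of calls were higher against 52.5% as deposited, and moved the median log2 fold change of all genes to 0.11; that of the mitotic genes was 2.39. A pseudocount of 5 lowered the log2 fold change of Ttk to 2.96 and of Bub1 to 1.41, both still called. The replicate block on the number in the library name gave 42 mitotic genes called higher, with Hjurp and Dlgap5 lost (adjusted p of 0.130 and 0.0753), and 1853 higher and 1490 lower over all genes. Same-numbered libraries of the groups correlated at -0.23 to 0.19, and differently numbered ones at -0.23 to 0.25. C1 and D1 carry the same number, and no OXA library carries that of A5. Whether the numbers pair the libraries cannot be told from these values. Alternatives for the 16 pairs were chosen after seeing the data. With a library left out, the smallest exact p is 0.0159, and each called pair difference missed an adjusted p of 0.05 for some of these sets (adjusted p of 0.0508 for the lowest). Of 13 settings, the reported one among them, 4 called Bub1 minus Bub3, 5 called Mad2l1 minus Bub3 and 9 called each of the other called pairs. Over all settings the Cenpa minus Hjurp difference stayed within 2.38 to 2.64, while the uncalled differences of Ndc80 minus Nuf2 (-0.45 to 0.36) and Ckap2 minus Ckap2l (-0.10 to 0.33) changed sign. Depth limits Cdc25c, Bub1 and Ttk, whose vehicle values rest on few reads.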
